A study of Drosophila melanogaster with 6 samples.

Results

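The cecropin cluster of Drosophila holds the 4 cecropin genes CecA1, CecA2, CecB and CecC together with Andropin (Anp), and its expression was examined in CR11538-overexpressing and control males after a bacterial injection. The members were chosen by name, as the protein-coding genes of the cluster, and all 5 were found among the 17558 genes of the count table. RNA was sequenced from 3 libraries of adult males carrying Gal80ts; Tub>CR11538 and from 3 libraries of control adult males carrying Gal80ts; Tub-Gal4/P{CaryP}attP40, every library being taken 12 h after M. luteus was injected. CR11538 is a long noncoding RNA, and its transgene answers to Gal4, which the tubulin promoter makes in almost every tissue. Both genotypes carry the temperature-sensitive repressor Gal80ts, which holds Gal4 silent until the flies are warmed. Uninfected flies were not analysed here, so every difference lies between genotypes of injected flies, and induction by the injection itself could not be measured. The study's methods describe its experiments in general as done with independent biological replicates, while the labels do not say for these libraries whether they came from separate groups of flies. Each p-value measures how these 6 libraries vary.

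Cecropins are short linear peptides that fold into an amphipathic helix and open the membranes of bacteria, Gram-negative ones above all. In the fat body, the main immune organ of the fly, their genes are switched on after infection, mostly through the Imd pathway and its NF-kappaB factor Relish, with input from the Toll factors Dif and Dorsal. CecB and CecC are also known for expression in pupae, while CecA1 and CecA2 are known as strong genes of infected larvae and adults. Anp encodes a related peptide that is made in the ejaculatory duct of males and is induced by mating and not by infection. M. luteus is a Gram-positive bacterium that is commonly used to stimulate the Toll pathway.

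The cluster lies on chromosome arm 3R of the dm6 genome, from 30209948 to 30216938, a stretch of 6991 bp in the Ensembl release 115 annotation. Anp stands first, from 30209948 to 30210382 on the plus strand. It is followed by CecA1, from 30210874 to 30211273, and CecA2, from 30212156 to 30212568, both on the plus strand as well. CecB is the only member on the minus strand, from 30213315 to 30213797. CecC, on the plus strand from 30216484 to 30216938, is set apart from CecB by 2686 bp, the widest gap of the cluster. The narrowest gap between members is that of 491 bp between Anp and CecA1. All 5 members share one gene structure, with 2 exons split by an intron of 58 to 69 bp. Each cecropin has a coding sequence for 63 residues and Anp one for 57 residues. None of the 5 overlaps another annotated gene.

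The annotation also places 2 cecropin pseudogenes inside the cluster. Cec-Psi1, between CecA1 and CecA2, had 0 counts in all 6 libraries, which in the shallowest library allows a share of up to 1.76e-05% of its counts, taking 3 counts as the limit. Cec2, between CecA2 and CecB, had 2, 1 and 4 counts in the CR11538-overexpressing libraries and 15, 7 and 3 in the control libraries, and it fell below the filter on low counts. The pseudogenes therefore gave almost no counts at a locus where every protein-coding gene had at least 158.

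All 5 members were higher in CR11538-overexpressing males than in controls by edgeR's quasi-likelihood test, where higher means a Benjamini-Hochberg adjusted p under 0.05 over the 13159 genes tested, at any fold. For each of the 5, the lowest CR11538-overexpressing library lay above the highest control library. Of all genes tested, 15.0% were higher, and 21.8% had no overlap in that direction. A fold change over 2 was reached by 3 members, CecA2, CecB and CecC, against 3.43% of all tested genes that were higher by that much. The separate value of CecA2 is uncertain, since its reads may also match CecA1. Both genes summed gave a log2 fold change of 0.66, under 2-fold. The median log2 fold change was 1.16 over the 5 members and -0.01 over all tested genes. The calls differ in how firmly they hold. Those of Anp, CecA2 and CecB stood with every library left out in turn, whereas those of CecA1 and CecC each rest on single libraries, as described with those genes.

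**Figure D1:**
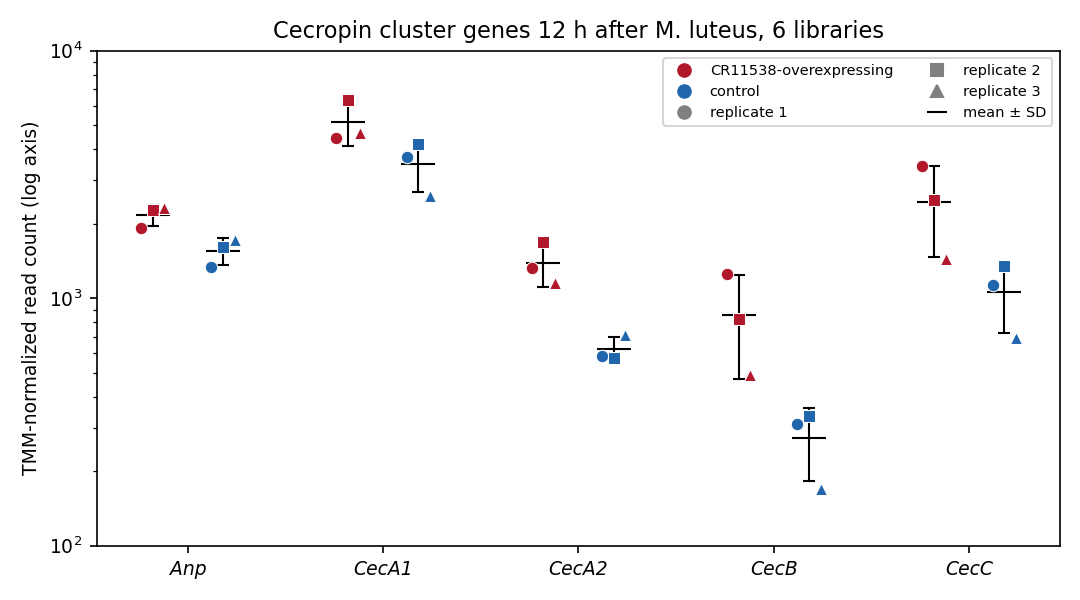
TMM-normalized read counts (log axis) of the 5 cluster genes in each of the 6 libraries, with CR11538-overexpressing libraries in red on the left of each pair and control libraries in blue on the right; bars are the mean ± SD over 3 libraries. No red point of a gene lies at or below a blue one, and the margin is narrowest for CecA1 and CecC, at 1.06-fold and 1.07-fold, and widest for CecA2, at 1.62-fold.

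The largest fold change was that of CecB. Its TMM-normalized counts, that is, read counts scaled to a common library size, were 1253, 822 and 491 in the 3 CR11538-overexpressing libraries, against 310, 335 and 170 in the 3 control libraries. Replicate 1 was highest among the CR11538-overexpressing libraries, and replicate 3 was lowest in both genotypes. Even so, the lowest CR11538-overexpressing library stood 1.47-fold above the highest control library. The means were 855 ± 382 in CR11538-overexpressing and 272 ± 89.1 in control libraries (n = 3 each, SD), which gave a log2 fold change of 1.65 with a standard error of 0.33 (edgeR's quasi-likelihood test, adjusted p = 0.00567).

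CecC, which lies beyond CecB on the other strand, followed the same order of libraries. It had 3415, 2486 and 1445 normalized counts in the CR11538-overexpressing libraries and 1133, 1350 and 689 in the control libraries. The CR11538-overexpressing replicate 3 came within 1.07-fold of the control replicate 2. The mean was 2449 ± 986 in CR11538-overexpressing and 1058 ± 337 in control libraries (n = 3 each, SD), which gave a log2 fold change of 1.21 with a standard error of 0.30 (edgeR's quasi-likelihood test, adjusted p = 0.0153). Without the control replicate 3, the lowest control library, the log2 fold change was 0.98 and the adjusted p was 0.0560, so the call ended. With the other libraries left out in turn, the adjusted p of CecC ran up to 0.0448.

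CecA2 had the lowest p-value of the cluster. Its normalized counts were 1323, 1692 and 1147 in the CR11538-overexpressing libraries and 586, 573 and 709 in the control libraries. The lowest CR11538-overexpressing library stood 1.62-fold above the highest control library, the widest margin of the cluster. The mean was 1387 ± 278 in CR11538-overexpressing and 622 ± 75.0 in control libraries (SD, n = 3 each), with a log2 fold change of 1.16 and a standard error of 0.14 (edgeR's quasi-likelihood test, adjusted p = 0.000446). With each library left out in turn, its log2 fold change stayed between 0.99 and 1.28.

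CecA1, the most abundant member, moved less. It had 4450, 6326 and 4637 normalized counts in the CR11538-overexpressing libraries, against 3715, 4183 and 2590 in the control libraries. The CR11538-overexpressing replicate 2 was the highest of all 6 libraries and the control replicate 3 the lowest, while the CR11538-overexpressing replicate 1 was only 1.06-fold above the control replicate 2. Means of 5138 ± 1033 in CR11538-overexpressing and 3496 ± 819 in control libraries (SD, n = 3 each) gave a log2 fold change of 0.56 with a standard error of 0.18 (edgeR's quasi-likelihood test, adjusted p = 0.0427). DESeq2 gave the same log2 fold change of 0.56 with an adjusted p of 0.10. The call also ended in edgeR without the CR11538-overexpressing replicate 2 (adjusted p = 0.153), without the control replicate 1 (adjusted p = 0.0792) and without the control replicate 3 (adjusted p = 0.115), and over all alternatives the adjusted p of CecA1 ran from 0.0035 to 0.153.

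CecA1 and CecA2 are close copies, and the sources used here do not say how reads that match both were treated. Their separate values are therefore uncertain. When the counts of both genes were added into 1 feature, the log2 fold change of the sum was 0.66 with a standard error of 0.16 (edgeR's quasi-likelihood test, adjusted p = 0.0120), close to that of the more abundant CecA1. The ratio of CecA1 to CecA2 counts was 3.36, 3.74 and 4.04 in the CR11538-overexpressing libraries and 6.34, 7.31 and 3.65 in the control libraries. The ratio was low in the control replicate 3, so the genotypes overlapped in it (exact two-sided permutation test, p = 0.3).

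Anp was the most even member among the CR11538-overexpressing libraries. It had 1930, 2277 and 2308 normalized counts in the CR11538-overexpressing libraries and 1338, 1610 and 1717 in the control libraries. Replicate 1 was the lowest library of each genotype. Its mean of 2172 ± 210 in CR11538-overexpressing against 1555 ± 196 in control libraries (SD, n = 3 each) was the smallest fold change of the cluster, with a log2 fold change of 0.48 and a standard error of 0.10 (edgeR's quasi-likelihood test, adjusted p = 0.00770). With each library left out in turn, it ran from 0.38 to 0.56 and the call stood.

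**Figure D2:**
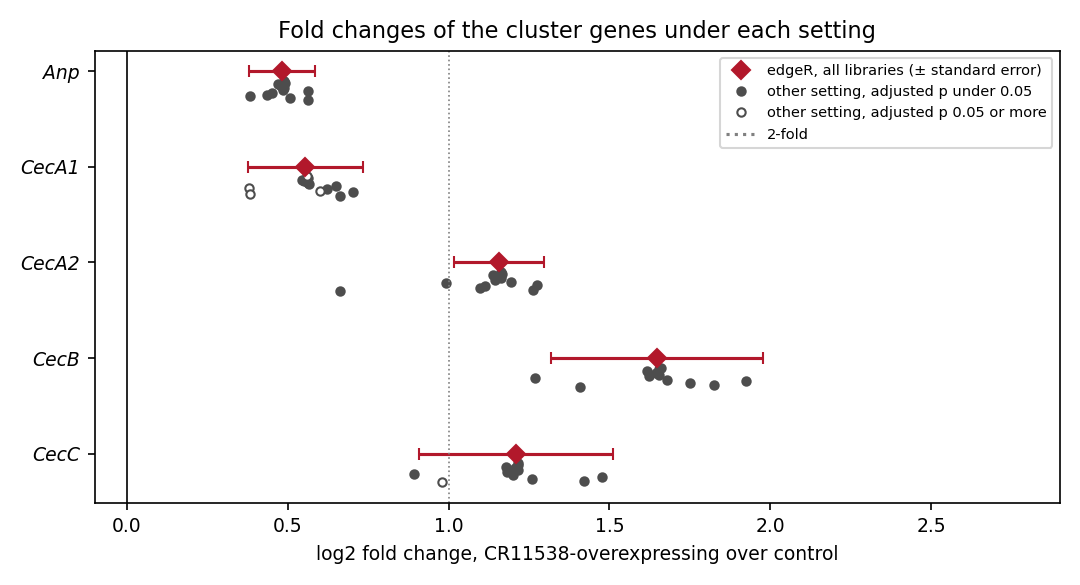
Log2 fold change of each cluster gene, CR11538-overexpressing over control, from edgeR with all libraries (red diamonds, bars are the standard error) and under the other settings (grey points, open where the adjusted p was 0.05 or more). All points lie above 0, 4 of the CecA1 points and 1 of the CecC points are open, and the lowest CecA2 point, at 0.66, is the sum of CecA1 and CecA2.

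Levels can be compared between genes only per length, as TPM. TPM was computed here from the counts and the annotated exon length, as a length-scaled share over the 17252 genes with such a length. In CR11538-overexpressing males, CecA1 led at 1221 ± 285 TPM, followed by CecC at 502 ± 177, Anp at 469 ± 70.6, CecA2 at 314 ± 68.4 and CecB at 159 ± 62.3 TPM (SD, n = 3). In control males, CecA1 led at 822 ± 187 TPM, followed by Anp at 333 ± 44.5, CecC at 218 ± 68.2, CecA2 at 140 ± 18.2 and CecB at 50.9 ± 16.4 TPM (SD, n = 3). CecC and Anp thus held opposite places in the order of means, but in the CR11538-overexpressing libraries their ranges overlapped, from 312 to 663 TPM for CecC and from 388 to 516 TPM for Anp. The ratio of Anp to CecC counts overlapped between the genotypes (exact two-sided permutation test, p = 0.4, where 0.1 is the lowest possible p). In the CR11538-overexpressing libraries Anp and CecA2 also overlapped, and in the control libraries CecC and CecA2 did. CecA1 at the top and CecB at the bottom did not overlap with their neighbours in either genotype.

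Added together, the 4 cecropins reached 2147, 2620 and 1820 TPM in the CR11538-overexpressing libraries and 1288, 1450 and 953 TPM in the control libraries. They took 0.0427% to 0.0609% of the counts of a CR11538-overexpressing library and 0.0227% to 0.0341% of a control library. The makeup of this sum is given as a description, with no test. CecA1 made up 45.8% to 62.7% of the summed cecropin TPM in the CR11538-overexpressing libraries, against 64.6% to 67.7% in the control libraries. CecB made up 5.30% to 10.3% in the CR11538-overexpressing libraries, against 3.38% to 4.48% in the control libraries. These shares did not overlap between the genotypes, though for CecA1 the nearest libraries were at 62.7% in CR11538-overexpressing and 64.6% in control, and the shares of CecA2 and CecC overlapped.

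Whether members moved by unlike amounts was asked with the log2 ratio of each of the 10 pairs of genes within a library, which needs no scaling between libraries. With 3 libraries against 3, the exact two-sided permutation test cannot go below p = 0.1. That value was reached by 3 pairs, whose ratios did not overlap between genotypes, and after adjustment over the 10 pairs the smallest p was 0.333. With this number of libraries the test could not have called any pair, so it gives no answer for or against a difference, and the ratios are given as values. The ratio of CecB to CecC counts was 0.367, 0.331 and 0.34 in the CR11538-overexpressing libraries and 0.274, 0.248 and 0.246 in the control libraries, a mean log2 difference of 0.43. This ratio had the tightest spread of all pairs, with an SD on the log2 scale of 0.08 in CR11538-overexpressing and 0.09 in control libraries (n = 3 each). The mean log2 ratio of CecA1 to CecB was 2.67 in the CR11538-overexpressing and 3.72 in the control libraries, and that of Anp to CecA2 was 0.66 in the CR11538-overexpressing and 1.32 in the control libraries.

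The members also differed in how much they varied among libraries of the same genotype. The coefficient of variation was 9.65% in CR11538-overexpressing and 12.6% in control libraries for Anp, and 44.7% in CR11538-overexpressing and 32.8% in control libraries for CecB. CecC was almost as variable as CecB, with 40.3% in CR11538-overexpressing and 31.9% in control libraries. Counting error alone would give these genes at most 6.06%, so depth does not set the precision of any member. The biological coefficient of variation in the edgeR fit was 9.67% for Anp, 12.2% for CecA2, 15.9% for CecA1, 25.5% for CecC and 27.2% for CecB.

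CecB and CecC departed from their genotype means together. In the CR11538-overexpressing replicate 1, CecB was 0.65 and CecC 0.57 above the mean on the log2 scale. In the CR11538-overexpressing replicate 3, CecB was at -0.70 and CecC at -0.67. In the control replicate 3, the values were -0.61 for CecB and -0.56 for CecC. Over the 6 libraries Pearson's r of these departures was 0.99 for CecB and CecC, 0.07 for CecA1 and CecA2, -0.04 for CecA2 and CecB, and -0.72 for Anp and CecB. These correlations describe 6 libraries that share their depth and scaling between the genes of a pair. The median fat body, hemocyte and midgut marker also lay above its genotype mean in the first of these 3 libraries and below it in the other two, and their part in the CecB and CecC values was not tested. The median departure of 7 hemocyte markers was 0.13, 0.09 and -0.22 in the CR11538-overexpressing libraries and 0.03, 0.03 and -0.08 in the control libraries.

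**Figure D3:**
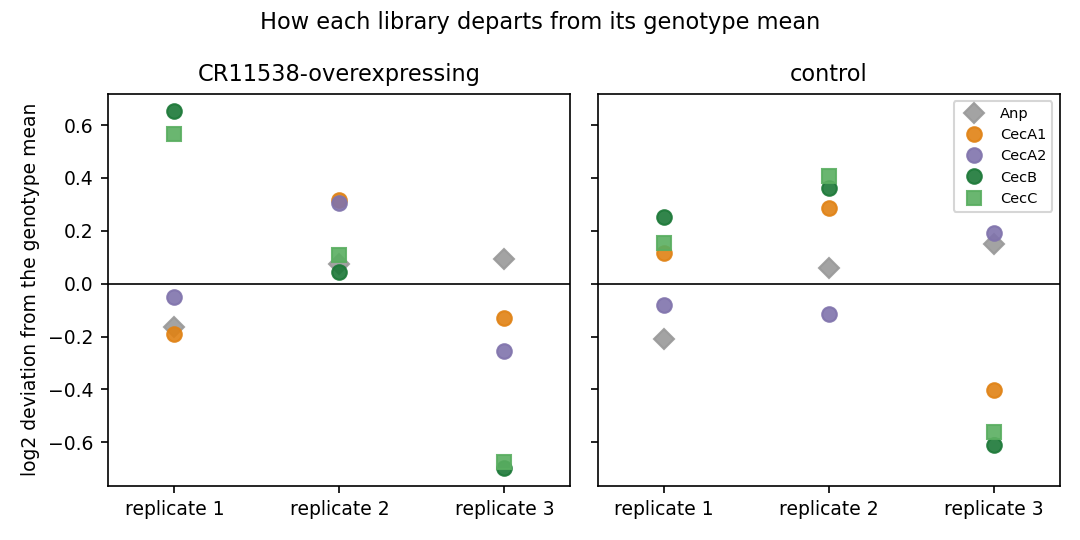
Log2 departure of each cluster gene from the mean of its genotype, for the 3 CR11538-overexpressing libraries (left) and the 3 control libraries (right). Replicate numbers are those of the labels. CecB and CecC lie side by side in every library, from 0.65 and 0.57 in the CR11538-overexpressing replicate 1 to -0.70 and -0.67 in replicate 3, while Anp stays within -0.21 and 0.15.

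Genes whose pattern over the 6 libraries was most like that of each member were looked up among the 11244 genes whose mean reached 50 normalized counts, by Pearson's r of log2 CPM (counts scaled to library size), as a description. The 3 most alike CecB were Tep3, TfIIA-S and CG34396, with r of 0.999, 0.996 and 0.996. Tep3 encodes a thioester-containing protein and TfIIA-S a subunit of a general transcription factor. The 3 most alike CecC were eys, Hk and CG34396, with r of 0.998, 0.997 and 0.997. CecC ranked 11 for CecB and CecB ranked 10 for CecC, so each had many other genes as close. CecA2 was closest to CG18547, CG43237 and the photoreceptor gene chp, with r of 0.996, 0.995 and 0.994. CecA1 was closest to CG33098, the amyloid precursor homologue Appl and CG42240, with r of 0.991, 0.985 and 0.982. Anp was closest to CG11060, the kinesin gene Klp59D and CG33947, with r of 0.997, 0.996 and 0.995. An r above 0.95 was held by 66 genes with Anp, 20 with CecA1, 268 with CecA2, 252 with CecB and 151 with CecC. For the other members, the closest gene of the cluster stood at rank 501 for Anp (CecA2), 465 for CecA1 (CecC) and 1189 for CecA2 (Anp).

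The other peptide genes known mainly as Imd targets gave a mixed picture beside the cluster. Among 9 such genes, AttD and edin passed as higher, 6 genes passed as lower and Def alone missed the threshold, with a median log2 fold change of -0.42, where 14.2% of all tested genes were lower. The attacin gene AttA averaged 5778 ± 830 normalized counts in CR11538-overexpressing and 10185 ± 553 in control libraries (n = 3 each, SD), which gave a log2 fold change of -0.82 (edgeR's quasi-likelihood test, adjusted p = 0.000546). The diptericin gene DptB and the attacin gene AttC were lower by smaller amounts, with log2 fold changes of -0.40 and -0.42. AttD, which encodes an attacin without a signal peptide, was the 1 gene of this list with a rise of more than 2-fold, averaging 3027 ± 1093 in CR11538-overexpressing and 1257 ± 197 in control libraries (SD, n = 3 each), at a log2 fold change of 1.27 (edgeR's quasi-likelihood test, adjusted p = 0.00370). These 9 genes summed to 39540 to 47759 TPM in CR11538-overexpressing libraries and 51021 to 60688 TPM in control libraries, far above the 4 cecropins, at 1820 to 2620 TPM in CR11538-overexpressing and 953 to 1450 TPM in control libraries. The difference between the cluster and this list was not tested as such.

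Parts of the Imd and Toll pathways, transcription factors of peptide genes and the peptide genes known mainly as Toll targets were counted in the same way. Among all tested genes, edgeR called 15.0% higher and 14.2% lower, an unadjusted p under 0.05 took 20.4% as higher and 20.5% as lower, and DESeq2 called 13.8% higher and 11.9% lower. Of 23 parts of the Imd pathway, edgeR called 0 higher and 5 lower, with a median log2 fold change of -0.08. At an unadjusted p under 0.05, 1 was higher and 8 were lower, and DESeq2 called 0 higher and 1 lower. The lower ones in edgeR included pirk, a negative regulator of the pathway that is itself induced by it, at -0.93, the scaffold and ubiquitin ligase gene POSH at -0.38, the kinase gene Tak1 at -0.29 and its partner Tab2 at -0.24. Rel, which encodes Relish, averaged 6622 normalized counts in CR11538-overexpressing and 7754 in control libraries and did not pass (log2 fold change -0.23, edgeR's quasi-likelihood test, adjusted p = 0.112). Of 14 transcription factors known to act on cecropin or other peptide genes, edgeR and DESeq2 each called 0 higher and 5 lower, and at an unadjusted p under 0.05 the counts were 0 and 8, with a median log2 fold change of -0.18. Lower in edgeR were the NF-kappaB genes dl at -0.66 and Dif at -0.40, foxo at -0.50, usp at -0.46 and GATAe at -0.53. Among the 20 parts of the Toll pathway, edgeR called 14 lower and 0 higher, with a median log2 fold change of -0.40. DESeq2 called 13 lower and 0 higher, and at an unadjusted p under 0.05, 18 were lower and 0 higher. The lower ones were led by nec at -0.81, SPE at -0.96, dl at -0.66 and Hayan at -1.02. Neither pathway list separates activating parts from inhibitors such as pirk, nec and cact, so these counts do not measure pathway activity. All 16 tested peptide genes known mainly as Toll targets were lower, 8 of them by more than 2-fold, with a median log2 fold change of -0.997.

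**Figure D4:**
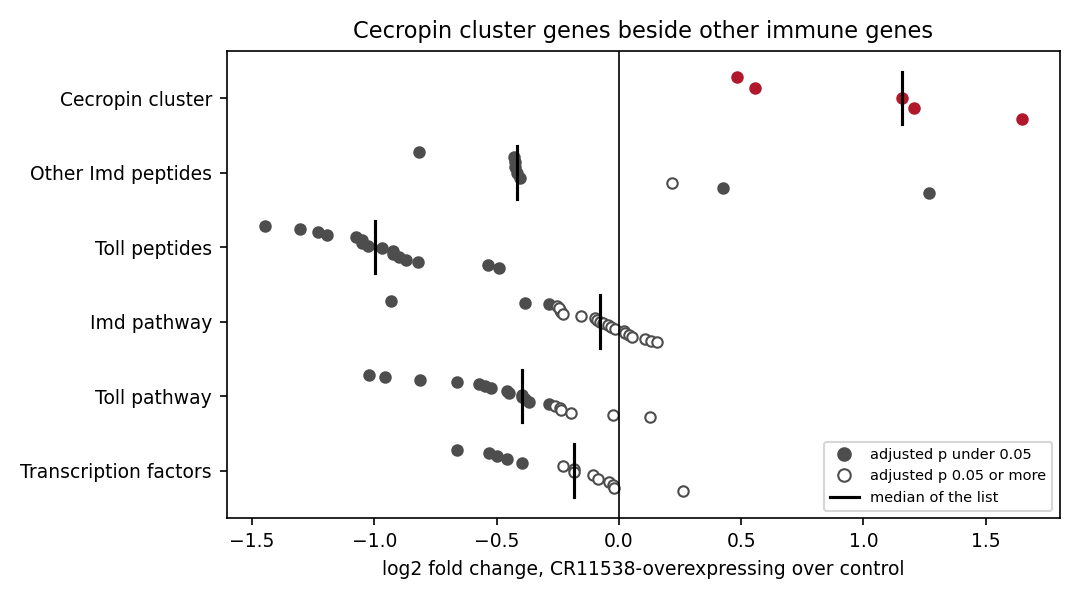
Log2 fold change, CR11538-overexpressing over control, of each cluster gene (red, top) and of the tested genes of 5 immune gene lists (grey); filled points have an adjusted p under 0.05 and black bars are medians. The cluster genes lie between 0.48 and 1.65 with a median of 1.16, whereas the medians of the other lists run from -0.997 for Toll peptides to -0.08 for the Imd pathway.

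The RNA came from many tissues at once, so for any tissue-restricted gene a change in the number of cells and a change in RNA per cell cannot be told apart. Markers of several tissues, those in which the members are made among them, are given here. They stand beside the 15.0% higher and 14.2% lower among all tested genes. One list of 6 markers covers both the ejaculatory duct, where Anp is made, and the ejaculatory bulb, so it does not mark the duct alone. Of these 6, 3 passed as higher and 3 missed the threshold, with a median log2 fold change of 0.44. The higher ones were Dup99B at 0.57, Ebp at 0.49 and EbpII at 0.58. Est-6 was at 0.39, EbpIII at -0.14 and Gld at -0.18, beside 0.48 for Anp. Departures from the genotype means were also set against those of Anp over the 6 libraries. Pearson's r was -0.27 for Dup99B, -0.93 for Ebp, -0.95 for EbpII, -0.64 for Est-6, -0.14 for EbpIII and 0.57 for Gld. The part of these markers in the Anp values was not tested. The summed level of the 6 markers was 8796 to 9702 TPM in CR11538-overexpressing and 6828 to 7906 TPM in control libraries. For the accessory gland, 3 of 9 tested markers were higher and 1 lower, with a summed level of 4470 to 4620 TPM in CR11538-overexpressing and 3551 to 4171 TPM in control libraries, and Acp95EF had 0 counts in every library.

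For the fat body, 2 of 8 markers passed as higher and 1 as lower in edgeR, and DESeq2 called 1 higher and 1 lower, with a median log2 fold change of -0.04, so this list lay near the shares of all genes. The higher ones in edgeR were the lipophorin gene apolpp at 0.79 and the perilipin gene Lsd-1 at 1.22, and the lower one was Apoltp at -0.74. The summed level of this list was 620 to 856 TPM in CR11538-overexpressing and 485 to 561 TPM in control libraries.

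Genes of the larval fat body, looked up after their values were seen and so given with no test, stood far apart between the genotypes. All 6 genes for larval serum proteins and fat body proteins (Lsp1alpha, Lsp1beta, Lsp1gamma, Lsp2, Fbp1 and Fbp2) had no overlap, with log2 fold changes of 2.89 to 4.86. Of all genes tested, 21.8% had no overlap in that direction. Lsp1beta had 3416, 2824 and 1516 normalized counts in the CR11538-overexpressing libraries and 124, 78.6 and 62.3 in the control libraries. The summed level of the 6 genes was 362, 337 and 181 TPM in the CR11538-overexpressing libraries and 30.6, 11.3 and 5.43 TPM in the control libraries. As for CecB and CecC, replicate 3 had the lowest sum of each genotype, and among the CR11538-overexpressing libraries replicate 1 had the highest. Among the control libraries, replicate 1 was highest for this sum and replicate 2 for CecB and CecC. The order of libraries is not particular to the larval fat body genes. The muscle gene Mlc2 and the hemocyte marker Col4a1 had the same order as this sum in both genotypes. Of 11244 genes, 252 had an r above 0.95 with CecB. Lsp2 overlaps CR11538 on the opposite strand, and since the strand setting of the counting is not known, reads of these 2 genes may not be told apart. The part of these genes in the CecB and CecC values was not tested.

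For hemocytes, which also express cecropins, 5 of 7 tested markers passed as higher, with a median log2 fold change of 0.38, from Pxn at 0.77, Col4a1 at 0.998, Hml at 0.38 and NimC1 at 0.84. Their summed level was 247 to 308 TPM in CR11538-overexpressing and 186 to 197 TPM in control libraries, and He was below the filter with 1 to 6 counts. For midgut enzymes, 4 of 8 were higher and 1 lower, and the summed levels overlapped, at 8435 to 9915 TPM in CR11538-overexpressing and 8290 to 9368 TPM in control libraries. The part of these markers in the levels of the cluster genes was not tested.

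Genes around the cluster on arm 3R gave mixed results. Within 100 kb on either side lie 37 other genes, of which 25 were tested, and the test called 6 of these higher and 1 lower, and 18 missed the threshold, beside 15.0% higher and 14.2% lower among all tested genes, with a median log2 fold change of 0.13. The nearest tested gene on the Anp side is RpS7, a ribosomal protein gene 927 bp from the cluster, with 16694 ± 753 normalized counts in CR11538-overexpressing and 18816 ± 571 in control libraries (SD, n = 3 each), and it did not pass (log2 fold change -0.17, edgeR's quasi-likelihood test, adjusted p = 0.0998). On the CecC side it is CG43448, 20155 bp away, with 53.4 ± 9.65 in CR11538-overexpressing and 34.4 ± 6.70 in control libraries (SD, n = 3 each), which did not pass either (log2 fold change 0.63, adjusted p = 0.0777). Named after their values were seen, the higher genes were Mlc2, a myosin light chain gene, with a log2 fold change of 1.62, CG18404 at 0.89, CG9682 at 0.88, Tpi at 0.48, CG31029 at 0.41 and Ppi1 at 0.22, and the 1 lower gene was CG15531 at -0.50. The nearest of these to the cluster on the CecC side is CG9682, 33989 bp away.

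**Figure D5:**
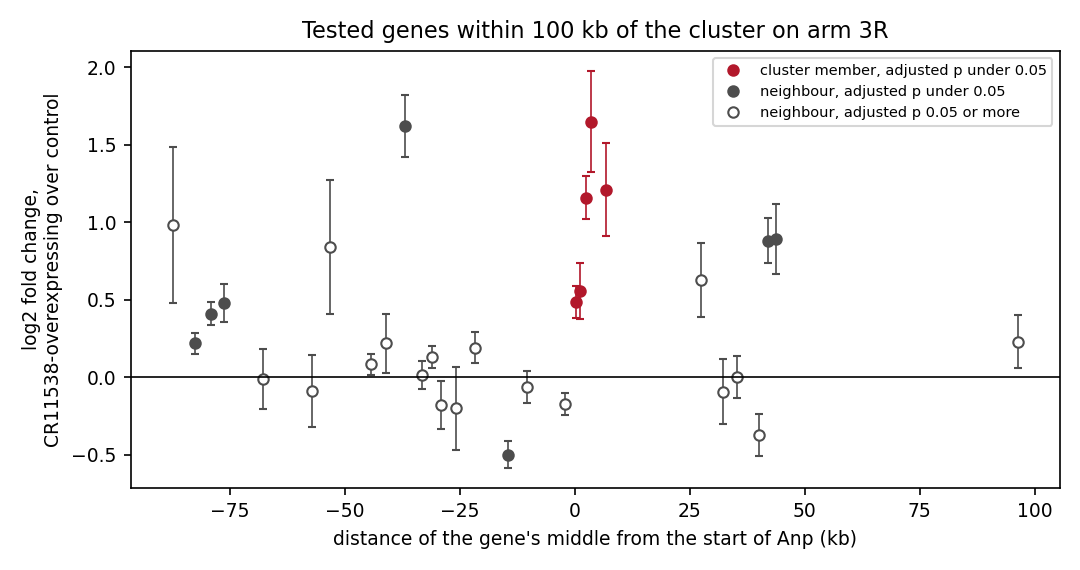
Log2 fold change (bars are the standard error), CR11538-overexpressing over control, of the cluster genes (red) and of the 25 tested genes within 100 kb (grey, filled where the adjusted p was under 0.05), against the distance of each gene's middle from the start of Anp in kb. The red points lie between 0.48 and 1.65. Of the neighbours, 18 of 25 are open, beside 9315 of all 13159 tested genes that did not pass.

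Some checks bear on the libraries as a whole. CR11538 itself had 2291, 3358 and 3312 raw counts in the CR11538-overexpressing libraries and 5, 2 and 5 in the control libraries, in accord with the labels. Library totals were 18688260 to 19652500 counts in CR11538-overexpressing and 17040432 to 19237306 counts in control libraries. The raw counts of the members ran from 507 for CecB to 6389 for CecA1 in CR11538-overexpressing libraries and from 158 for CecB to 4260 for CecA1 in control libraries.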

How the data were processed

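Libraries were made from poly(A) RNA and read from both ends. Per the labels, HISAT2 2.0.5 placed the reads on dm6 and featureCounts 1.5.0-p3 counted them by gene, and the deposited values are these raw counts, neither normalized nor pooled. How strand and reads with several matches were handled, and which annotation was counted, is not stated in these sources. Groups and replicate numbers came from the labels, which head the count columns, and 0 columns were left unused. Gene models came from the Ensembl release 115 annotation, which named 17252 of 17558 genes. Some genes are not reported here.

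Counts were tested under R 4.3.3 with edgeR 4.0.16, which uses limma 3.58.1. The default filterByExpr left 13159 genes, scaling was by TMM, and the model of the quasi-likelihood test held genotype alone, with 4 residual degrees of freedom and Benjamini-Hochberg adjustment over all genes tested. Tables, exact permutation tests and figures used scipy 1.17.1, numpy 2.4.6, pandas 2.3.3 and matplotlib 3.10.9 under Python 3.11.15. All scripts that test across genes were tested on simulated data. Limits for a count of 0 cover counting error only. No pair of libraries differed by less than the sampling noise. The chi-square per gene against that noise was 12.4 to 33.9 between CR11538-overexpressing libraries, highest for replicates 1 and 3. It was 6.67 to 7.54 between control libraries, so the CR11538-overexpressing libraries differed more among themselves over all genes.

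Alternatives were DESeq2 1.42.0, edgeR scaled by DESeq2 size factors or by library totals, no filter, a minimum of 10 counts per library, a block for replicate number, leaving out single libraries, a fold threshold of 2, and CecA1 and CecA2 summed. The members, gene lists and markers were chosen with earlier results of these data known. By rule, the named genes were the 5 members, the annotated genes within the cluster, the nearest tested gene on each side, up to 4 genes per list with the lowest adjusted p, the 3 genes most like each member, and CR11538. Further genes named in the text were chosen after their values were seen.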

Additional observations from a re-analysis of the deposited data

How the results depend on the processing

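All 62 alternative log2 fold changes of the members were above 0, and 57 kept the call. In these counts the same fit of CecA1 and CecA2 summed stands under CecA1 and again under CecA2. CecA1 was at 0.56 with DESeq2, where it did not pass, and ran from 0.38 to 0.70 with each library left out in turn. CecC ran from 0.89 to 1.48 with each library left out, and did not pass at 0.98 without the control replicate 3. The number of members that passed was 3 with a fold over 2 and 3 to 5 with each library left out, 3 being without the control replicate 3. The number of all genes that passed was 3844, and 2339 to 3873 with each library left out, at 2504 without the control replicate 1 and 2339 without the control replicate 2. CecA1 and CecA2 summed gave 0.66, against 1.16 for CecA2 alone. Other scalings moved the median of all genes to between -0.02 and 0.01.

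With the replicate number as a block (replicate block), CecB was at 1.62, CecC at 1.18 and CecA1 at 0.57, all 5 members passed, and 3985 genes passed in all. The standard error with the block was 0.13 for CecB, 0.12 for CecC and 0.10 for CecA1. Without the block it was 0.33, 0.30 and 0.18. The labels name no shared litter, batch or day. The departures of same-numbered libraries from their genotype means correlated at 0.13, 0.03 and 0.07. The other pairs ran from -0.12 to 0.05, the highest being control replicate 2 with CR11538-overexpressing replicate 3. These values are all small and cannot tell whether same-numbered libraries share more than a number.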
